A study of Homo sapiens with 12 samples.

Results

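Centromere and kinetochore proteins were followed here as 37 genes, taken by symbol from the 59276 gene symbols measured, and all 37 were present and passed the expression filter in both comparisons. RNA was sequenced from JJN3, a human multiple myeloma cell line, in 12 samples of 4 groups with 3 replicates each. In the first pair of groups, JJN3 cells were given the solvent DMSO or 10 µM MS023, an inhibitor of type I protein arginine methyltransferases, for 3 days. In the second pair, JJN3 cells stably expressing Cas9 carried an inducible guide, which was a control (isgCtrl) in one group and targeted PRMT1 (labelled iPRMT1, here PRMT1-KO) in the other, and both were induced with doxycycline for 3 days. These Cas9 cells were made with lentivirus, sorted for a reporter and selected with puromycin, and no cloning step is described. Cas9, virus, selection and doxycycline are described for the cells with inducible guides and not for the DMSO and MS023 cells. Labels do not say whether the replicates were separate cultures, so p-values measure the spread between these samples, which may be technical.

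The centromere is marked by nucleosomes that hold the histone H3 variant CENP-A. On them sits an inner layer of CENP proteins, the constitutive centromere-associated network, which is present through the cell cycle. At mitosis an outer layer, built from the KNL1, MIS12 and NDC80 complexes, joins it and binds spindle microtubules. The SKA complex steadies these attachments, while a fibrous corona with the RZZ complex, CENP-E and CENP-F captures microtubules and carries checkpoint proteins. Many of these genes are transcribed most in late S phase, G2 and mitosis. RNA of a whole culture cannot tell fewer cells in these phases apart from less RNA per cell.

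PRMT1 mRNA, the target of the guide, was at 849 to 867 TPM (length-normalized transcript abundance, scaled to one total in every sample) in isgCtrl and 301 to 309 TPM in PRMT1-KO samples. Replicates within a group had a Pearson's r across genes of 0.993 to 0.996. The 6 plasma cell markers SDC1, IRF4, PRDM1, XBP1, TNFRSF17 and MZB1 summed to 702 to 740 TPM in DMSO, 1102 to 1140 TPM with MS023, 651 to 666 TPM in isgCtrl and 626 to 629 TPM in PRMT1-KO samples. None was at 0 in all samples, but MZB1 had a mean of 105 TPM in DMSO and 2.01 TPM in isgCtrl. The summed markers of T cells (CD3D, CD3E, CD2) and myeloid cells (CD14, LYZ, ITGAM) were at most 0.736 and 2.19 TPM. Among epithelial and stromal markers, EPCAM was at 58.5 to 92.5 TPM in the 12 samples, while the mean of KRT8 or COL1A1 was at most 2.49 TPM in any group. With MS023, EPCAM was called lower (-0.56 on the log2 scale) and COL1A1 higher (0.68), and KRT8 was too low to be tested. Of the plasma cell markers XBP1 (1.15), MZB1 (0.75) and PRDM1 (0.60) were called higher, while SDC1 (0.39), IRF4 (0.19) and TNFRSF17 (-0.04) were not called. The part of these markers in the results below was not tested. The depth of each sample cannot be recovered from TPM.

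MS023 lowered most of the centromere and kinetochore genes. Of 37 genes, 31 were called lower and 0 higher than in DMSO, where 19.3% of all 12903 genes tested were called lower and 11.6% higher. A gene was called at a Benjamini-Hochberg adjusted p under 0.05 in limma and an absolute log2 fold change above 0.48. Fold changes are differences of mean log2(TPM+1), a scale that makes changes of low genes smaller. With median-ratio scaling the calls over all genes were 1959 lower and 1906 higher, where they were 2486 and 1500 on the deposited scale, and 29 of the 37 genes were called lower. The median log2 fold change of the 37 genes was -1.17, beside -0.11 over all genes tested. Of the 37, 36 had a negative fold change (59.1% of all genes tested), 35 an unadjusted p under 0.05 (56.5%) and 34 an adjusted p under 0.05 (48.8%). The MS023 and DMSO samples did not overlap in 35 genes (59.5%), and in 34 of these every MS023 sample was below every DMSO sample (36.3%). Mean TPM with MS023 was under 50% of its DMSO value for 25 of the 37 genes, where the share over all genes was not computed. It ran from 18% of DMSO for CENPA and CENPE to 103% for PMF1. Summed over the 37 genes, DMSO had 1789 ± 31.6 TPM and MS023 962 ± 20.2 TPM (SD, n = 3 each). CENPA, CENPE, KNL1 and SPC25 are among genes that the study named from these same samples, so their calls are not independent evidence.

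**Figure D1:**
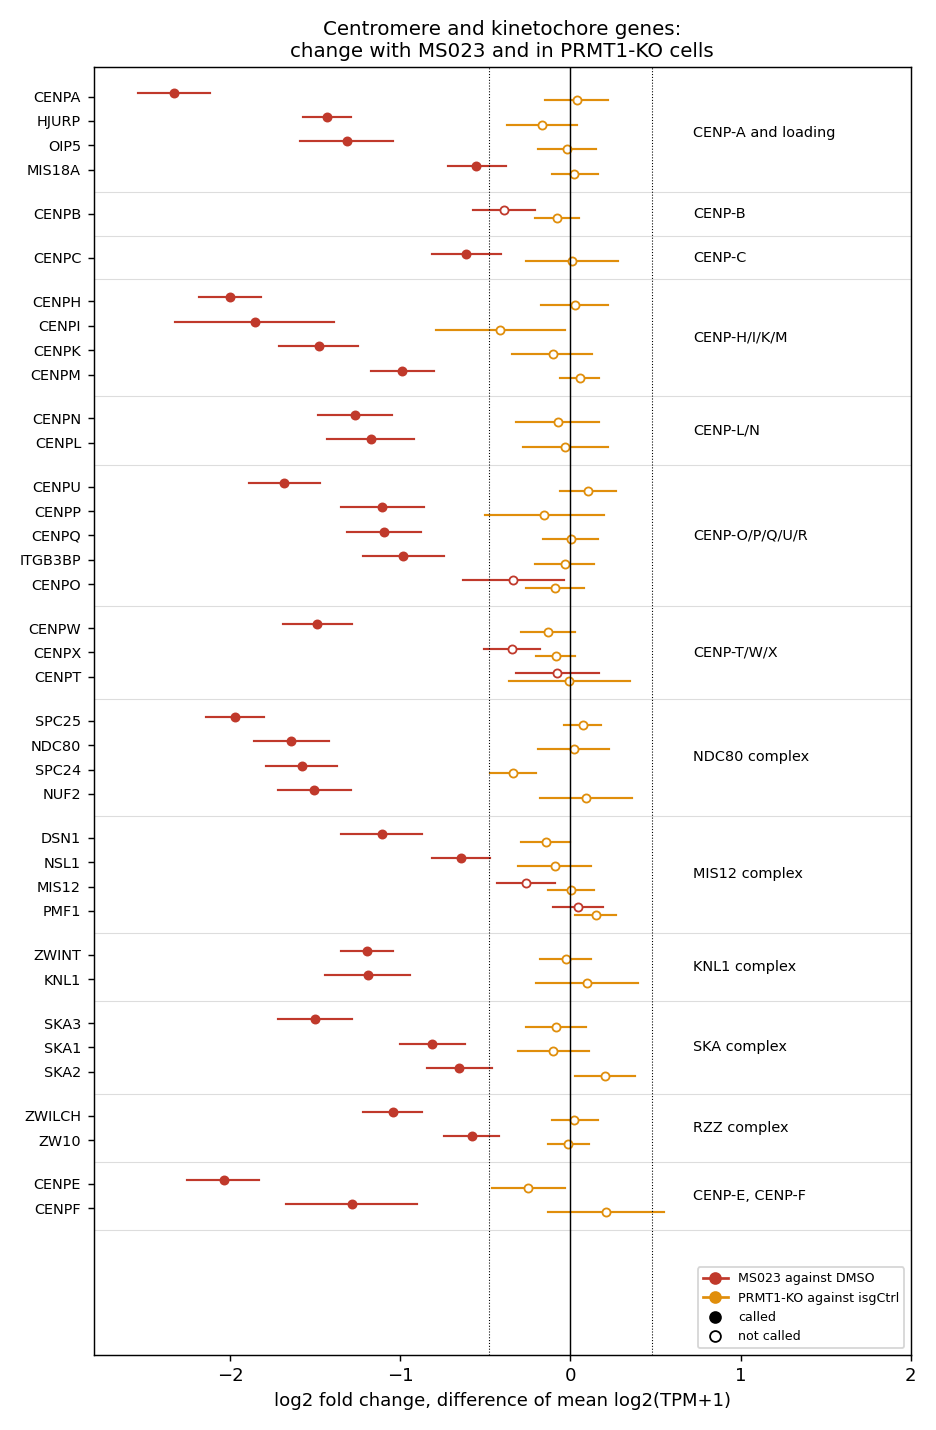
Log2 fold changes (difference of mean log2(TPM+1), x axis) of the 37 genes, grouped by complex, with MS023 against DMSO in red and PRMT1-KO against isgCtrl in orange. Lines are 95% confidence intervals of limma, filled points are called genes, and dotted lines mark 0.48 in either direction. Of the red points, 31 are filled and lie left of the dotted line, while all 37 orange points are open.

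Markers of cycling cells moved in the same samples. All 8 S phase markers (MCM2 to MCM7, PCNA and TYMS) were called lower with MS023 (19.3% of all genes tested), with a median log2 fold change of -0.78. Summed, they went from 1552 to 1596 TPM in DMSO to 871 to 929 TPM with MS023. All 8 G2/M markers (CCNB1, CCNB2, CCNA2, CDC20, UBE2C, TOP2A, MKI67 and CDK1) were also called lower (again beside 19.3%), with a median of -1.54, and their sum went from 896 to 927 TPM to 304 to 325 TPM. Their part in the fall of the kinetochore genes was not tested.

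Promoter sequences were searched for motifs, and no motif was found in all of these genes. RefSeq windows of 300 bases, from 250 before to 50 after a start, were at hand for 32 of the 37 genes. Both strands were searched for CCAAT, the site of the factor NF-Y, for TTTGAA, the core of the cell cycle homology region found in many G2/M promoters, and for GCGGGAA, a form of the E2F site. CCAAT was in 59.4% of the 32 windows, against 37.7% of the windows of 9430 genes tested with MS023 and 35.7% of all 27305 windows. TTTGAA was in 40.6%, against 9.67% and 15.4%, and GCGGGAA in 25% against 10.7% and 6.56%. No match of one motif overlapped a match of another in these 32 windows (0 cases). Of the 26 genes called lower with a window, 16 held CCAAT, 12 TTTGAA and 6 GCGGGAA, and of the 6 genes not called, 3, 1 and 2 did. CENPE and CENPI held none of the 3 motifs in their windows, and neither did CENPT, which was not called, and some other genes. The CENPI window lies inside its longer GENCODE gene, and the bases before the GENCODE start were not searched. The motif counts are matches of letters, no enrichment was tested, and they are not evidence of binding.

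The sequences before the RefSeq starts of CENPA, CENPE, CENPI and CENPU are shown because these are 4 of the 6 genes with the largest falls. That of PMF1 is shown because it had the highest fold change of the 37. Of the other two, CENPH had no window, and the bases before the SPC25 start lay in annotated exons. All stretches are 150 bases of GRCh38.p14, 5′ to 3′ on the strand of the gene, with motif matches in capitals. CENPA is at chr2:26785906-26786055, CENPI at chrX:101100908-101101057 and PMF1 at chr1:156212857-156213006 (all plus strand), each ending at the base before the RefSeq start. The CENPA and CENPI stretches lie inside the longer GENCODE genes. The GENCODE gene of CENPI begins at chrX:101098188, so its stretch may not be the promoter of the gene. Annotated exons hold 29 bases of the CENPA stretch, 30 of CENPE, 0 of CENPI, 30 of CENPU and 25 of PMF1. CENPE is at chr4:103198416-103198565 (minus strand), ending 72 bases before its start, and CENPU at chr4:184734101-184734250 (minus strand), ending 4 bases before.
CENPA: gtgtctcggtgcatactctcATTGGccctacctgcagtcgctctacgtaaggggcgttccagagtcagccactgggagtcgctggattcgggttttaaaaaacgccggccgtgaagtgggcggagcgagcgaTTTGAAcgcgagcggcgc
CENPE: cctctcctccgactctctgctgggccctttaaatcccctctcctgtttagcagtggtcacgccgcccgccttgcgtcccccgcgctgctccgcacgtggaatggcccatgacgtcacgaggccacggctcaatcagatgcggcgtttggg
CENPI: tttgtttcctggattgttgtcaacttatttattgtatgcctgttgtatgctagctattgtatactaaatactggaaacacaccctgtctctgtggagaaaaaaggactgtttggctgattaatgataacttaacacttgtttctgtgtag
CENPU: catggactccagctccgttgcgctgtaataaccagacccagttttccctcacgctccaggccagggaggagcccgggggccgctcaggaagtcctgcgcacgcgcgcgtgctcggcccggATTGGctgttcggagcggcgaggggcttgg
PMF1: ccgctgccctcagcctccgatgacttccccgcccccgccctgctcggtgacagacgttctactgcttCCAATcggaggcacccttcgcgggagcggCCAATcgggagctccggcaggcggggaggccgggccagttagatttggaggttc
In CENPA the TTTGAA began 18 bases before the start, with a reversed CCAAT further upstream. CENPU held a reversed CCAAT, PMF1 held CCAAT 2 times, and the CENPE and CENPI stretches held none of the 3 motifs.

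Genes for CENP-A and for its loading all fell with MS023. CENPA, at chr2:26764289-26801067 (plus strand, GRCh38), was at 45.7, 40.4 and 40.6 TPM in the DMSO samples and at 8.30, 7.39 and 7.16 TPM in the MS023 samples. Its log2 fold change of -2.33 (SE 0.09) was the 11th lowest of all genes tested (limma, Benjamini-Hochberg adjusted p = 5.5e-05). An exact permutation test of 3 samples against 3 cannot give a two-sided p under 0.1, the value it gave for 35 of the 37 genes. HJURP, the chaperone that deposits CENP-A, was at 36.5 ± 0.378 TPM in DMSO and 12.9 ± 0.269 TPM with MS023 (SD, n = 3 each). OIP5 and MIS18A, subunits of the Mis18 complex that licenses the loading, changed by -1.31 and -0.55 on the log2 scale. MIS18A stayed at 67.5% of its DMSO TPM, the least change of these genes, and was not called with median-ratio scaling (-0.45) or quantile normalization (-0.435). CENPB, which binds a box in alpha-satellite DNA, was at 92.9, 90.8 and 98.6 TPM in DMSO and 68.1, 70.8 and 76.2 TPM with MS023. Its groups did not overlap, but its log2 fold change of -0.39 was under the threshold (limma, Benjamini-Hochberg adjusted p = 0.0064).

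The inner layer ranged from some of the largest falls to no call at all. CENPC, which links CENP-A nucleosomes to the outer layer, was at 7.34, 7.90 and 8.63 TPM in DMSO and 4.84, 4.54 and 5.21 TPM with MS023, a log2 fold change of -0.61 that was under the threshold with quantile normalization (-0.476). All 4 genes of the CENP-H/I/K/M group were called lower. CENPH was at 29.6, 28.9 and 28.1 TPM in DMSO and 6.25, 6.15 and 7.09 TPM with MS023. The samples of the groups were far apart, with a log2 fold change of -2.00 (SE 0.07; limma, Benjamini-Hochberg adjusted p = 5.5e-05). CENPI was one of the lowest genes, at 7.01, 6.36 and 8.97 TPM in DMSO and 0.81, 1.51 and 1.74 TPM with MS023. CENPK and CENPM changed by -1.48 and -0.99. CENPN, which reads the CENP-A nucleosome, was at 127, 112 and 119 TPM in DMSO and 51.0, 44.4 and 51.5 TPM with MS023, and its partner CENPL changed by -1.17 where CENPN changed by -1.27. CENPN shares its locus with the oppositely transcribed CMC2. Protein-coding genes on the other strand also overlap others of the 37 genes, such as ITGB3BP, NUF2, OIP5, SPC25 and ZWILCH. No source used here says whether quantification used strand.

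CENPO stood apart from the other 4 members of the CENP-O/P/Q/U/R group. CENPU was at 59.7, 62.8 and 54.5 TPM in DMSO and 19.0, 16.4 and 17.7 TPM with MS023, a log2 fold change of -1.68. CENPP, CENPQ and ITGB3BP, which encodes CENP-R, changed by -1.11, -1.09 and -0.98 and were all called. CENPO was at 17.1, 17.8 and 14.1 TPM in DMSO and 12.4, 11.4 and 14.3 TPM with MS023. The third DMSO sample fell within the MS023 range, and the log2 fold change of -0.33 missed the test (limma, Benjamini-Hochberg adjusted p = 0.0616, 95% interval -0.63 to -0.04).

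The histone-fold genes CENPT, CENPW and CENPX differed more. CENPW, which pairs with CENP-T, was at 84.0, 82.9 and 95.2 TPM in DMSO and 29.0, 32.4 and 30 TPM with MS023, with a log2 fold change of -1.49. CENPT, whose protein is one of the docks for the NDC80 complex, was at 36.3, 34.9 and 41.2 TPM in DMSO and 33.0, 34.1 and 39.3 TPM with MS023. The 2 groups overlapped, with a log2 fold change of -0.08 and a 95% interval of -0.32 to 0.17 (limma, Benjamini-Hochberg adjusted p = 0.546). Under median-ratio scaling and quantile normalization its sign was the other way. CENPX, which also works in DNA repair, had the highest level of the 37, at 197, 178 and 191 TPM in DMSO and 151, 146 and 146 TPM with MS023. The groups did not overlap, and the log2 fold change of -0.35 was under the threshold.

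In the outer layer the NDC80 complex, the main coupler to microtubules, fell as a whole. SPC25 was at 40.1, 39.2 and 41.3 TPM in DMSO and 9.82, 9.90 and 8.85 TPM with MS023, a log2 fold change of -1.97 (SE 0.07; limma, Benjamini-Hochberg adjusted p = 5.5e-05). SPC24, which anchors the complex together with SPC25, was at 31.4, 30.9 and 28.2 TPM in DMSO and 8.80, 9.15 and 10.4 TPM with MS023. NDC80 and NUF2, the microtubule-binding pair, had nearly the same level in DMSO (54.6 ± 3.13 and 54.7 ± 3.10 TPM, SD, n = 3 each). With MS023 they were at 16.9 ± 1.57 and 18.6 ± 1.60 TPM (SD, n = 3 each), with log2 fold changes of -1.64 and -1.51.

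The MIS12 complex, which bridges the inner layer to NDC80 and KNL1, was mixed. DSN1 was at 23.4, 25.5 and 23.5 TPM in DMSO and 11.1, 9.29 and 11.7 TPM with MS023, a log2 fold change of -1.11, and NSL1 changed by -0.64. MIS12 was at 19.2, 21.2 and 18.7 TPM in DMSO and 16.5, 16 and 16.2 TPM with MS023. Its groups did not overlap, but the log2 fold change was only -0.26 (limma, Benjamini-Hochberg adjusted p = 0.0245). PMF1 was at 129, 129 and 132 TPM in DMSO and 139, 133 and 132 TPM with MS023. The MS023 samples were just above the DMSO samples without overlap. On the deposited scale it was the only one of the 37 genes with a positive log2 fold change, at 0.05 with a 95% interval of -0.10 to 0.19 (limma, Benjamini-Hochberg adjusted p = 0.529). PMF1 overlaps the readthrough gene PMF1-BGLAP on the same strand, so reads may be split between the 2 annotations. CENPA overlaps a separate gene, SLC35F6, on the same strand, and whether their exons overlap was not examined.

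KNL1 and ZWINT, which carry the checkpoint proteins, changed alike, at -1.19 and -1.2. ZWINT was at 117, 108 and 109 TPM in DMSO and 48, 47.7 and 48.7 TPM with MS023, and KNL1 was far lower in level, at 7.39 ± 0.902 TPM (SD, n = 3) in DMSO. In the SKA complex, SKA3 was at 26.2, 25.8 and 23.5 TPM in DMSO and 7.44, 8.22 and 9.14 TPM with MS023, a log2 fold change of -1.5. SKA2 was at 93.5, 94.4 and 88.1 TPM in DMSO and 60.7, 53.5 and 60.5 TPM with MS023. SKA1 and SKA2 changed less than SKA3, by -0.81 and -0.65, and all 3 were called.

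Corona genes were all called lower on the deposited scale. ZWILCH, of the RZZ complex that recruits dynein, was at 22.7, 21.4 and 20.5 TPM in DMSO and 10.5, 9.49 and 9.77 TPM with MS023. Its partner ZW10, which also works in vesicle traffic outside mitosis, changed by -0.58 where ZWILCH changed by -1.04. ZW10 was no longer called with median-ratio scaling (-0.479) or quantile normalization (-0.425), where it was under the fold change threshold. CENPE, a kinesin that moves chromosomes to the spindle equator, was at 12.7, 11.4 and 11.5 TPM in DMSO and 2.03, 1.96 and 2.43 TPM with MS023. Its log2 fold change of -2.04 was next to that of CENPA among the 37 genes (limma, Benjamini-Hochberg adjusted p = 6.2e-05). CENPF, a large coiled-coil protein of the corona, went from 26.9 ± 4.14 to 10.4 ± 1.67 TPM (SD, n = 3 each).

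**Figure D2:**
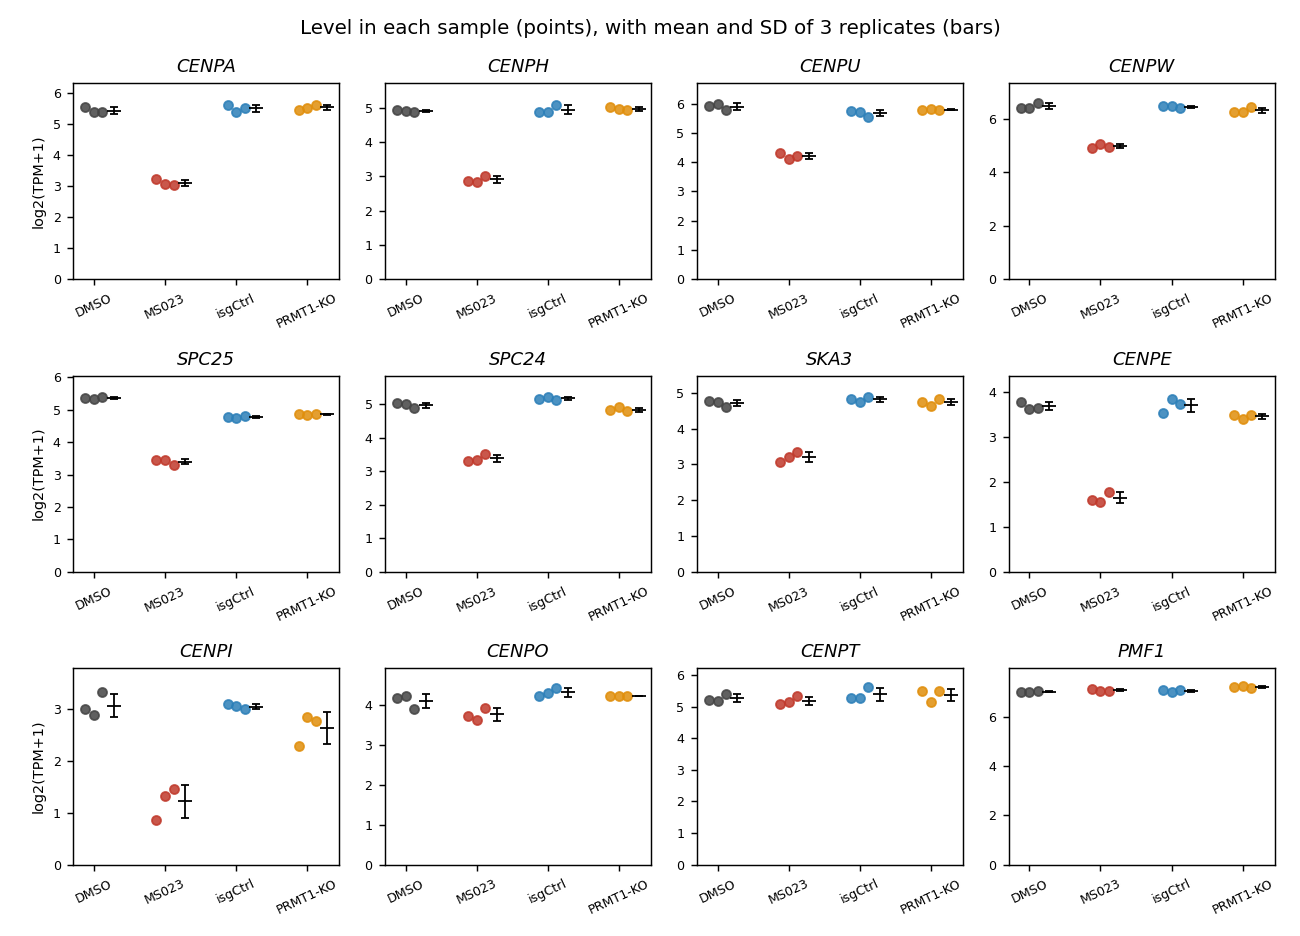
Level of 12 of the genes in each of the 12 samples, as log2(TPM+1) on axes that start at 0, with the mean and SD of 3 replicates beside the points. MS023 samples of CENPA sit near 3 and the 9 other samples above 5, while the groups of CENPO and CENPT overlap.

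A wider list of 26 other kinetochore genes moved in the same direction. Of them 21 were called lower and 1 higher with MS023, with a median log2 fold change of -1.11, beside 19.3% and 11.6% of all genes tested and their median of -0.11. TTK (-1.51), SGO2 (-1.40) and BUB1 (-1.40), which encode a checkpoint kinase, a protector of centromeric cohesion and another checkpoint kinase, had the lowest values. ERCC6L, SGO1 and SGO2 are among genes that the study named from these same samples, so their calls are not independent evidence. The list was also chosen with earlier results of these data known. KNTC1, the third subunit of the RZZ complex, and SPDL1, its dynein adaptor, both changed by -1.36, and CENPS, the partner of CENPX, by -0.69; these were picked as partners after their values were seen. NDEL1, a dynein regulator that also works outside mitosis, rose by 0.63 (limma, Benjamini-Hochberg adjusted p = 0.00133), and it was at 20.3 to 23.7 TPM in DMSO and 33.4 to 35.1 TPM with MS023. NDE1 (0.42) and CLASP1 (0.24) were not called.

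In PRMT1-KO cells none of the 37 genes was called (0 of 37), where 0.781% of the 12285 genes tested were called in either direction and 0.366% were called lower. At an adjusted p under 0.05 alone the count was also 0, against 1.28% of all genes. An unadjusted p under 0.05 was found for 5 of the 37 (limma), against 18.6% of all genes tested, and the lowest adjusted p was 0.0597 (limma, Benjamini-Hochberg). The median log2 fold change was -0.02, beside -0.04 over all genes. Of the 37 genes, 21 were lower than in isgCtrl (60.5% of all genes tested) and 16 higher. The samples did not overlap in 10 genes (26.7% of all genes tested), and in 5 of them all PRMT1-KO samples were below all isgCtrl samples (17.6%). The sum of the 37 genes was 1715 ± 7.86 TPM in isgCtrl and 1692 ± 24.1 TPM in PRMT1-KO (SD, n = 3 each). For 34 genes the 95% interval of limma lay within 0.48 of 0 in both directions, a share that was not computed over all genes. The other 3 were CENPI (-0.79 to -0.03), CENPP (-0.50 to 0.20) and CENPF (-0.13 to 0.55), whose intervals reached past 0.48. The 8 S phase and 8 G2/M markers had median log2 fold changes of -0.03 and -0.02, and 0 of the 16 were called. Of the 26 other kinetochore genes 0 were called, with 5 at an unadjusted p under 0.05 in limma.

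The 5 genes with an unadjusted p under 0.05 came from different complexes. SPC24 was at 34.8, 36.2 and 33.8 TPM in isgCtrl and 27.0, 28.8 and 26.6 TPM in PRMT1-KO. These groups did not overlap, with a log2 fold change of -0.34 (limma, Benjamini-Hochberg adjusted p = 0.0597, 95% interval -0.47 to -0.20). Its partner SPC25 was at 26.5, 26.0 and 26.9 TPM in isgCtrl and 28, 27.6 and 28.1 TPM in PRMT1-KO, a log2 fold change of 0.07, and NDC80 and NUF2 changed by 0.02 and 0.09. CENPI was at 7.56, 7.29 and 6.96 TPM in isgCtrl and 3.87, 6.19 and 5.84 TPM in PRMT1-KO, with 1 PRMT1-KO sample well below the other 2. CENPE was at 10.6, 13.4 and 12.1 TPM in isgCtrl and 10.2, 9.54 and 10.2 TPM in PRMT1-KO, a log2 fold change of -0.25. PMF1 was at 136, 130 and 134 TPM in isgCtrl and 147, 151 and 146 TPM in PRMT1-KO, and SKA2 at 58.2, 61.7 and 60.0 TPM and 64.0, 68.6 and 75.2 TPM. Both were higher in every PRMT1-KO sample, by 0.15 and 0.20 on the log2 scale, with adjusted p of 0.192 and 0.227 (limma, Benjamini-Hochberg).

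CENPA, which had the largest fall with MS023, was at 47.5, 40.9 and 44.8 TPM in isgCtrl and 43.1, 45.2 and 48.3 TPM in PRMT1-KO. These groups overlapped, with a log2 fold change of 0.04 and a 95% interval of -0.15 to 0.22. CENPH was at 28.5, 28 and 33.1 TPM in isgCtrl and 31.6, 30 and 29.4 TPM in PRMT1-KO, again with overlap.

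**Figure D3:**
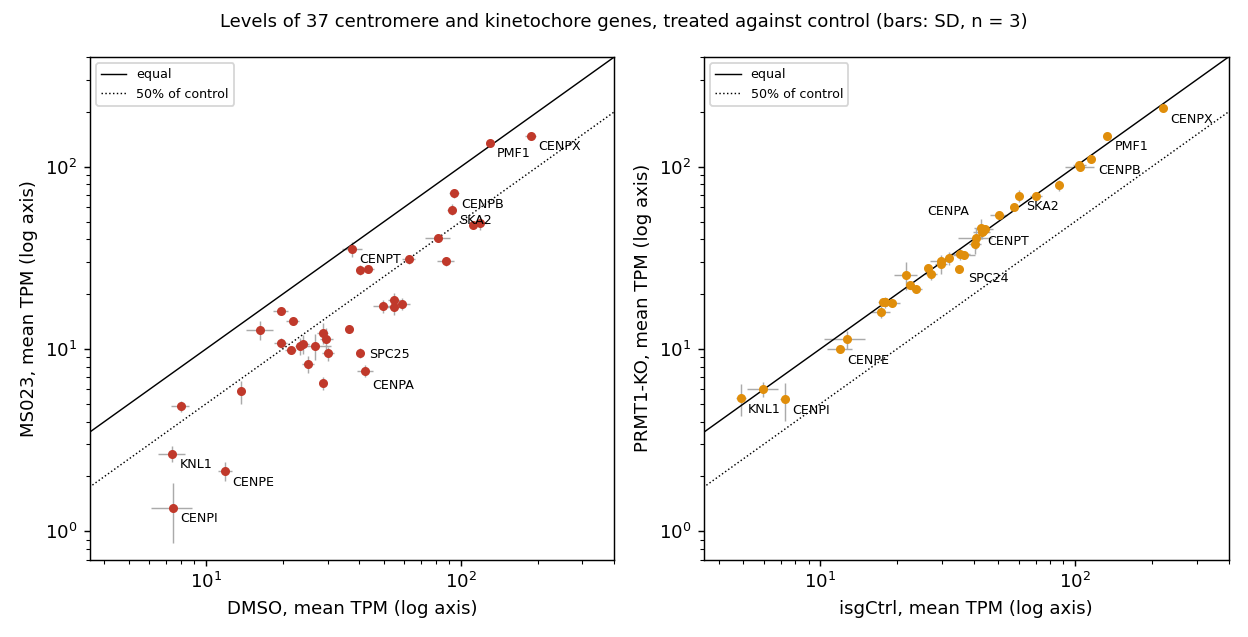
Mean TPM of the 37 genes in treated cells (y axis) against control cells (x axis), both on log axes, for MS023 against DMSO (left) and PRMT1-KO against isgCtrl (right), with bars for the SD of 3 replicates. On the left 25 points lie under the dotted line of 50% of control, and on the right the points lie along the line of equal levels, from 72.9% of control for CENPI to 117% for CENPF.

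The difference between the effects of MS023 and PRMT1-KO was itself tested in a limma fit of all 12 samples. On the deposited scale it was below 0 for all 37 genes, beside 7464 of 13256 genes tested. Under median-ratio scaling CENPT was at 0.01. The difference passed an adjusted p under 0.05 for 34 of the 37, against 35.6% of genes tested in either direction. Of all genes tested, 21.2% passed with negative and 14.4% with positive differences. CENPO, CENPT and PMF1 did not pass, at -0.25, -0.07 and -0.10 with 95% intervals of -0.56 to 0.07, -0.48 to 0.34 and -0.25 to 0.04. The largest differences were those of CENPA (-2.36), SPC25 (-2.04) and CENPH (-2.02). For MIS12 (-0.26) the adjusted p of 0.0287 rose to between 0.0521 and 0.069 when DMSO replicate 2, MS023 replicate 2, isgCtrl replicate 1 or 2, or PRMT1-KO replicate 1 or 2 was left out (limma, Benjamini-Hochberg). It was 0.0804 with the replicate number as a block and 0.215 with quantile normalization. With median-ratio scaling the calls of CENPB, CENPX and MIS12 were lost, at adjusted p of 0.0551, 0.0856 and 0.126 (limma, Benjamini-Hochberg).

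The control groups were not alike for every gene. SPC25 was at 40.2 ± 1.06 TPM in DMSO and 26.5 ± 0.461 TPM in isgCtrl, and SKA2 at 92.0 ± 3.41 and 60.0 ± 1.77 TPM (SD, n = 3 each). CENPX was higher in isgCtrl, at 222 ± 4.5 TPM against 188 ± 9.79 TPM in DMSO (SD, n = 3 each). Across the 37 genes the isgCtrl and DMSO levels had a Pearson's r of 0.981, a description over genes, which are not replicates. As described, these control groups differ in Cas9, virus, selection, doxycycline and solvent, which cannot be told apart, and they may differ in ways not described.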

How the data were processed

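RNA of 12 JJN3 samples was sequenced. Per the labels and the Methods, the authors trimmed reads with Trimmomatic, aligned the rest to hg38 (GENCODE V35) by STAR, quantified them with Salmon and deposited log2(TPM+1) per gene symbol. Tool versions are not given in the sources used here. The labels give a minimum of read pairs per sample but no number for each, and depth cannot be read from these values, so no count model was used and no counting error is given.

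Groups came from the labels. Genes whose mean log2(TPM+1) passed 1 in at least one group of the comparison were fitted with limma 3.58.1 in R 4.3.3 (eBayes without trend) on the 6 samples of a comparison, and p was adjusted by Benjamini-Hochberg over all genes tested. The difference of effects was fitted on 12 samples. Thresholds followed the Methods. With them 3986 genes were called with MS023 and 96 in PRMT1-KO. The MS023 count is well above the number of differentially expressed genes that the paper reports, and the reason was not tested. TPM was taken back from the deposited log2 values, and ± is the SD of 3 replicates. Positions are those of GENCODE v44 on GRCh38, and promoter sequences are from RefSeq (GRCh38.p14). Scripts were tested on simulated data first. The genes and lists were chosen with earlier results of these data known. All 37 genes are named. Values in each sample are given for CENPA, for the gene with the largest change with MS023 in each complex, for genes not called with MS023, for genes with an unadjusted p under 0.05 in PRMT1-KO and for the 3 largest differences between the effects. Alternatives were other filters on low values, eBayes with trend, other fold change thresholds, a pseudocount of 0.1, quantile normalization, median-ratio scaling, leaving out each replicate, a replicate block and a single fit of the 12 samples. One list of cell type markers is not reported here.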

Additional observations from a re-analysis of the deposited data

Results flagged for a closer look

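For 34 of the 37 genes the effect of MS023 differed from that of PRMT1-KO in the limma fit of 12 samples (Benjamini-Hochberg adjusted p under 0.05). Each had a lower value under MS023, as did 21.2% of all genes tested at this threshold. The values below are the log2 fold change with MS023 minus that with PRMT1-KO. Among genes of CENP-A and its loading, the difference was -2.36 for CENPA, -1.26 for HJURP, -0.57 for MIS18A and -1.30 for OIP5, and it was -0.31 for CENPB. In the inner layer it was -0.62 for CENPC, -2.02 for CENPH, -1.44 for CENPI, -1.38 for CENPK and -1.04 for CENPM. It was -1.14 for CENPL, -1.19 for CENPN, -0.95 for CENPP, -1.10 for CENPQ, -1.79 for CENPU and -0.95 for ITGB3BP, and -1.36 for CENPW and -0.26 for CENPX. In the NDC80 complex it was -1.66 for NDC80, -1.60 for NUF2, -1.24 for SPC24 and -2.04 for SPC25. In the MIS12 complex it was -0.96 for DSN1, -0.26 for MIS12 and -0.55 for NSL1, and beside it -1.29 for KNL1 and -1.17 for ZWINT. The SKA genes had -0.71 for SKA1, -0.86 for SKA2 and -1.41 for SKA3. Corona genes had -0.57 for ZW10, -1.07 for ZWILCH, -1.79 for CENPE and -1.5 for CENPF. The calls of CENPB, CENPX and MIS12 were lost with median-ratio scaling, at adjusted p of 0.0551, 0.0856 and 0.126 (limma, Benjamini-Hochberg). As described, the 2 comparisons used cells that also differ in Cas9, virus, selection and doxycycline, which cannot be told apart from the agent here.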

How the results depend on the processing

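With MS023, 23 to 34 of the 37 genes were called under the alternatives. There were 23 with an absolute log2 fold change above 1, where the share over all genes was not computed. With no fold change threshold there were 34, against 48.8% of all genes tested. In every fit that left out a replicate there were 31, where 2274 of 12956 to 2574 of 12936 genes tested were called lower. The median of the 37 genes was -1.074 with median-ratio scaling and -1.032 with quantile normalization, and -1.184 to -1.127 with a replicate left out. In PRMT1-KO 0 of the 37 were called under every alternative run, while calls over all genes went from 96 to 2 to 21 with a replicate left out and to 0 with the replicate block. MIS18A and ZW10 lost their MS023 call with both scalings and CENPC with quantile normalization. The difference of effects was called for 31 to 34 genes, where 21.2% of all genes tested were called lower on the deposited scale. CENPB, CENPX and MIS12 were lost under median-ratio scaling and MIS12 under quantile normalization and the replicate block. Replicate numbers showed no strong pairing of the samples. For MS023 and DMSO, same-numbered deviations had a mean r of 0.0791, against -0.0396 for other numbers. For PRMT1-KO and isgCtrl these were -0.0496 and 0.0249. Weak pairing was not tested. With the replicate block 31 genes were called with MS023 and 33 in the difference. Over all genes tested, 2513 of 12903 and 2522 of 13256 were called lower in these fits. Median-ratio and quantile scaling turned the sign of CENPT with MS023 (0.025 and 0.024), and median-ratio scaling that of its difference (0.012). In PRMT1-KO the same 2 scalings turned OIP5 (0.019 and 0.021), CENPL (0.009 and 0.008), ITGB3BP (0.007 and 0.014), CENPT (0.030 and 0.028), ZWINT (0.012 and 0.010) and ZW10 (0.025 and 0.024). With a replicate left out, PRMT1-KO values passed 0 for CENPA (-0.019 to 0.086), CENPC (-0.091 to 0.072), CENPH (-0.017 to 0.102), CENPL (-0.105 to 0.067), CENPN (-0.178 to 0.002), CENPQ (-0.040 to 0.057), CENPT (-0.069 to 0.112), ITGB3BP (-0.075 to 0.019), KNL1 (-0.035 to 0.178), MIS12 (-0.023 to 0.028), MIS18A (-0.010 to 0.055), NDC80 (-0.043 to 0.079), OIP5 (-0.081 to 0.017), ZW10 (-0.034 to 0.005), ZWILCH (-0.000 to 0.062) and ZWINT (-0.069 to 0.013). The cause was not tested.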
